A study of Monodelphis domestica with 25 samples.

Results

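The transcripts described here are those that were abundant in fresh opossum blood, had fallen at least 4-fold by 12 h of culture and were again at least 4-fold below their starting level at 72 h. They were chosen from the counts of an untreated time course, after dividing each library by its effective total from edgeR's TMM factors (CPM, the counts a transcript would have in a library of a standard total) and averaging the 3 libraries of each time with 0.1 CPM added. A transcript had to reach 10 CPM at 0 h and to show both losses. Of 22049 transcripts with an Ensembl identifier, 7563 reached 10 CPM at 0 h and 106 (0.481% of 22049) met all 3 limits. A further 7 identifiers were set aside by the rule, and none of them would have met its limits. These 106 are called the early-lost transcripts below.

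The blood came from the gray short-tailed opossum, Monodelphis domestica, of the LSD strain, and was cultured in diluted form in RPMI-1640 medium at 37 °C. The untreated time course held 3 libraries at each of 0, 12, 24, 48 and 72 h, and the labels give the same 3 identifiers (A0036, A0039 and A3538) at every time without saying that each is 1 animal. The pilot cultures were made at 2 dilutions, and the labels do not say which dilution a library had. A second experiment, on blood with the single identifier A9394 (numbers R1 to R4), held 2 controls at 12 h, 2 controls at 24 h, 1 PFOA library for each pairing of 400 or 800 µM with 12 or 24 h, and 2 libraries with 1200 µM GenX at 12 h. All cultures of that experiment, controls included, carried 0.1% DMSO per the labels. PFOA stands for perfluorooctanoic acid. GenX, which came into use in its place, is an ammonium salt whose acid has a shorter fluorinated chain interrupted by an ether oxygen. Nothing says that libraries of a group came from separate animals, so p-values measure the spread between these libraries, which may be technical.

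Whole blood mixes red cells, platelets and several kinds of white cells, which differ in how long they live outside the body. The level of an mRNA in such a culture depends on how fast it is made, how fast it is degraded and which cells remain. Messengers of signalling and transcription factor genes are often short-lived, whereas those of structural and metabolic genes tend to persist. In these bulk samples, fewer cells of a type and less RNA per cell cannot be told apart. The files pair no identifier with a gene name and 0 identifiers matched the reference gene table, so no function is given for any transcript and the labelled tissue was not checked here against marker genes. CPM values are not corrected for transcript length, so levels are compared between samples and not between transcripts.

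The time-course libraries held between 51349217 and 336472834 counts, and those of the treatment experiment between 366269 and 11685427. A count of 3, taken as the floor of detection, corresponded to between 0.0170 and 0.0670 CPM in the time course, between 0.254 and 0.627 CPM in the controls, and up to 8.49 CPM in the PFOA libraries. These floors cover counting error only and treat each count as single, although low counts were mostly even, so the floors may lie higher. All 106 early-lost transcripts had counts in each library at 0, 12 and 24 h, and at most 2 of them were without a count in any library at 48 or 72 h. In the 24 h PFOA libraries, 29 of them (400 µM) and 24 of them (800 µM) had no count. The 2 tables were scaled separately, so any level set across the 2 experiments is a rough one.

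At 0 h the early-lost transcripts held between 0.913% and 1.54% of all counts in a library, and at 12 h between 0.143% and 0.255%. Their median level was 42.3 CPM at 0 h, 6.95 CPM at 12 h, 3.52 CPM at 24 h, 2.35 CPM at 48 h and 1.58 CPM at 72 h. Since the 0, 12 and 72 h libraries chose the members, these falls are a description and carry no test. Among the 7563 transcripts that reached 10 CPM at 0 h, 128 (1.69%) showed the 12 h loss, 695 (9.19%) showed the 72 h loss and 106 (1.4%) showed both. The early loss was therefore the narrower limit: 589 transcripts failed on the 12 h loss alone, against 22 that failed on the 72 h loss alone and 100 that failed on the 0 h minimum alone. Just inside the 12 h limit lay a transcript with a 4.02-fold loss, and just outside lay one with a 3.97-fold loss. At 72 h the corresponding losses were 4.36-fold and 3.97-fold, and at the 0 h minimum the corresponding levels were 10.2 and 9.98 CPM.

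The deepest early loss was that of ENSMODT00000027399. It stood at 526, 70.4 and 442 CPM at 0 h in A0036, A0039 and A3538, and at 0.905, 1.01 and 1.08 CPM at 12 h. At 72 h it stood at 4.29, 69.6 and 7.03 CPM in the same order. The 3 libraries were thus nearly equal at 12 h after very unequal starting levels, and in A0039 the 72 h level was back at its own 0 h level, although the mean of the 3 libraries met the 72 h limit. ENSMODT00000007478, with the next largest early loss, stood at 980, 1649 and 2378 CPM at 0 h, then 26.5, 29.8 and 28.7 CPM at 12 h. Its 72 h libraries were at 12.4, 64.1 and 15.4 CPM. Here too the 12 h libraries lay close together, and A0039 was again the highest at 72 h, while no later library came near the 0 h range.

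**Figure D1:**
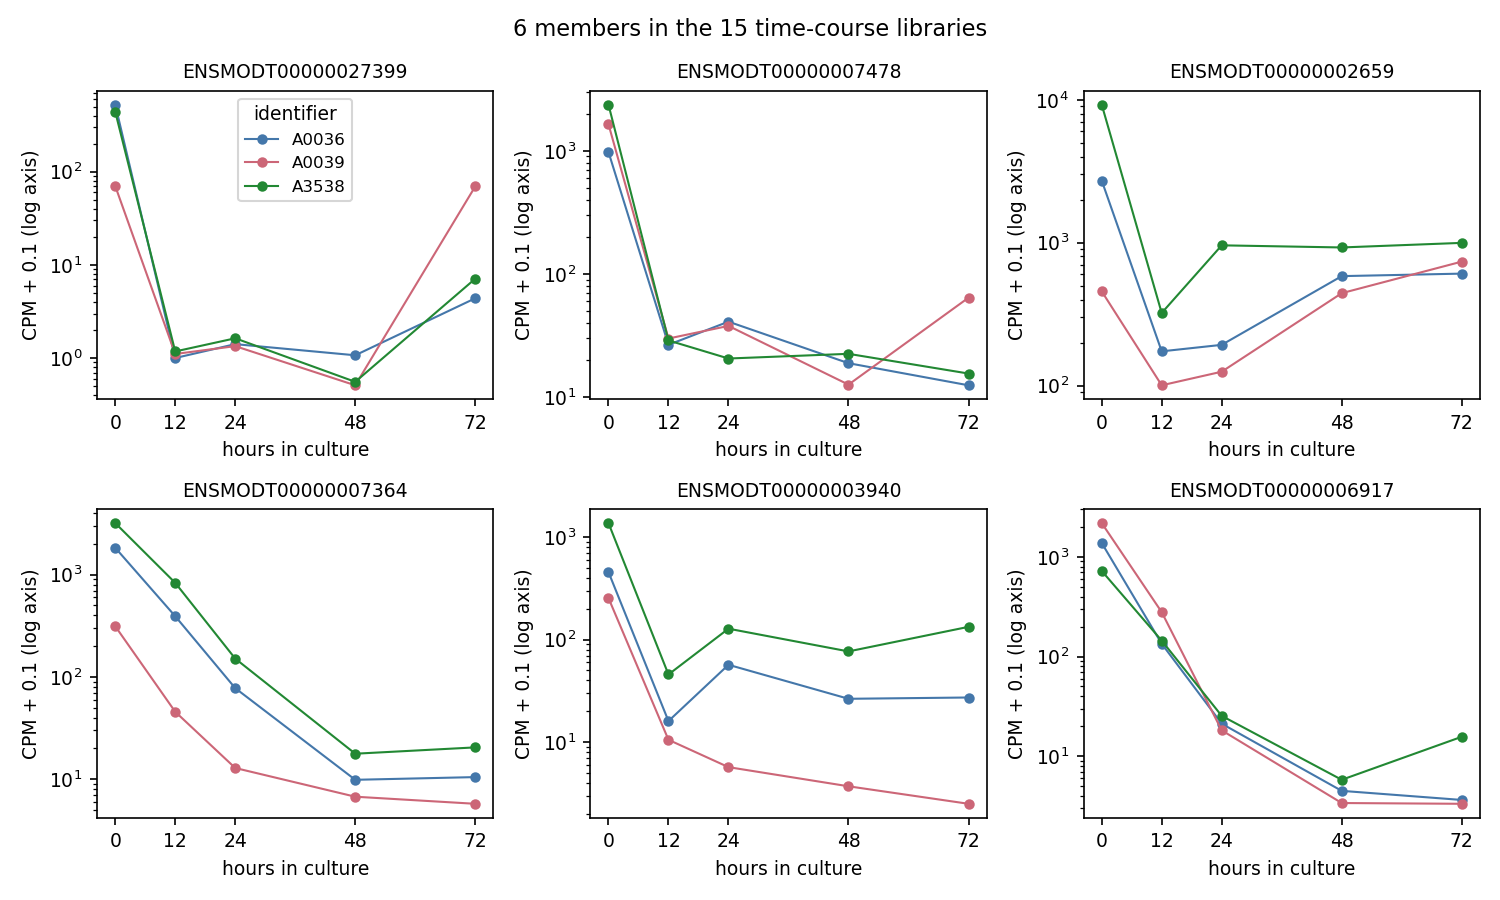
Levels of 6 early-lost transcripts in the 15 time-course libraries, in TMM-scaled CPM plus 0.1 on a log axis against hours in culture, with 1 line for each identifier. ENSMODT00000027399 lay between 0.905 and 1.08 CPM at 12 h and stood at 69.6 CPM in A0039 at 72 h, whereas ENSMODT00000002659 was higher at 72 h than at 12 h in all 3 identifiers.

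The 2 early-lost transcripts with the highest 0 h means followed opposite courses after 12 h. ENSMODT00000002659 stood at 2722, 457 and 9260 CPM at 0 h in A0036, A0039 and A3538 and at 173, 100 and 322 CPM at 12 h. It then stood at 193, 125 and 958 CPM at 24 h, at 583, 443 and 925 CPM at 48 h, with 607, 737 and 996 CPM at 72 h. Every 72 h library was above every 12 h library, and the 72 h level of A0039 exceeded its own 0 h level. ENSMODT00000007364 stood at 1836, 313 and 3202 CPM at 0 h, at 392, 45.4 and 832 CPM at 12 h, with 77.4, 12.7 and 151 CPM at 24 h. It went on to 9.73, 6.62 and 17.6 CPM at 48 h and to 10.3, 5.62 and 20.3 CPM at 72 h. The order of the identifiers, with A3538 highest and A0039 lowest, was the same at all 5 times for this transcript.

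The loss was early for all 106 transcripts by construction, but what followed varied. The median transcript kept 17.4%, 7.81%, 5.13% and 3.42% of its 0 h mean at 12, 24, 48 and 72 h. From 12 to 24 h the mean was lower in 76 of the 106 transcripts, and from 24 to 48 h in 82. From 48 to 72 h it was lower in 47 and higher in 59, with a median ratio of 1.06. At 24 h, 9 transcripts were above the level that marks a 4-fold loss, and at 48 h 6 were, so for these the loss was not held at every time between. At 72 h, 16 stood above their 12 h mean, and only 22 were never higher from one time to the next after 12 h. The number with a mean under 1 CPM was 0, 3, 13, 42 and 44 at the 5 times in order.

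Grouped after their values were seen, 39 transcripts were at least another 4-fold lower at 48 h than at 12 h, 23 were higher at 48 h than at 12 h, and 44 lay between. The 39 had median levels of 54.8, 10.01, 2.3, 0.606 and 0.701 CPM at 0, 12, 24, 48 and 72 h. The 23 had medians of 53.8, 7.40, 11.8, 14.6 and 7.04 CPM at the same times. The groups had like medians at 0 h, and since the 48 h level formed them, their distance at 48 h is no finding.

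**Figure D2:**
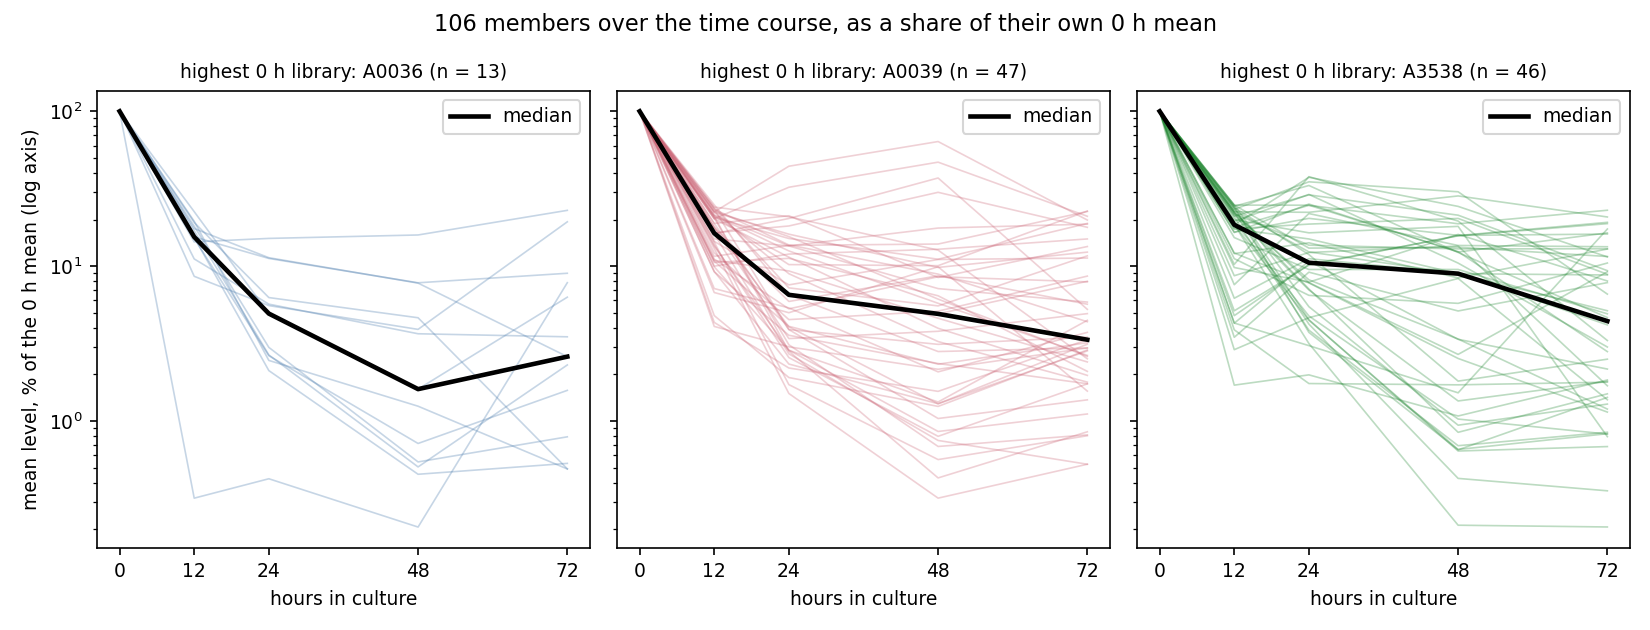
Mean level of each early-lost transcript (3 libraries per time, 0.1 CPM added) as a percent of its 0 h mean, on a log axis against hours in culture, in 3 panels by the identifier that held its highest 0 h library. The thick line is the median of the panel, and thin lines fan out after 12 h, from steady falls to returns above the 12 h level.

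Within single identifiers the losses were less uniform than the means. Every one of the 106 transcripts was lower at 12 h than at 0 h in each identifier, and 104 were lower at 72 h in each. Both 4-fold losses were met in 92 transcripts within A0036, in 73 within A0039 and in 89 within A3538, and in 52 within all 3 identifiers. The median share of its own 0 h level that a transcript kept at 72 h was 2.62% in A0036, 2.76% in A0039 and 5.98% in A3538. The 0 h libraries lay entirely above the 12 h libraries for 87 transcripts (13.2% of the 7563 did so), above the 24 h libraries for 88 (16.1%), above the 48 h libraries for 96 (23.1%) and above the 72 h libraries for 99 (28.4%). The rule used the 0 h libraries, so nothing is read from these shares.

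The starting levels of the early-lost transcripts were spread widely between identifiers. The rule used the 0 h means, so this too is a description. The highest 0 h library exceeded the lowest by a median of 2.74-fold among the 106, against 1.5-fold among the 7563, and by 4-fold or more in 32 (30.2%) against 3.85%. The highest 0 h library was that of A0039 for 47 transcripts, that of A3538 for 46 and that of A0036 for 13. The 2 ends were mostly the same pair: A3538 was lowest for 43 of the 47 that were highest in A0039, and A0039 was lowest for 43 of the 46 that were highest in A3538. These counts of leading and lowest identifiers come without shares over the 7563, so they are not shown to be particular to the early-lost transcripts. TMM factors of the 0 h libraries were 0.536, 1.17 and 0.511 for A0036, A0039 and A3538, and with scaling to library totals alone the rule found 67 transcripts, 65 of them among the 106. How far the 0 h libraries' composition enters the choice of members was not tested beyond that count.

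**Figure D3:**
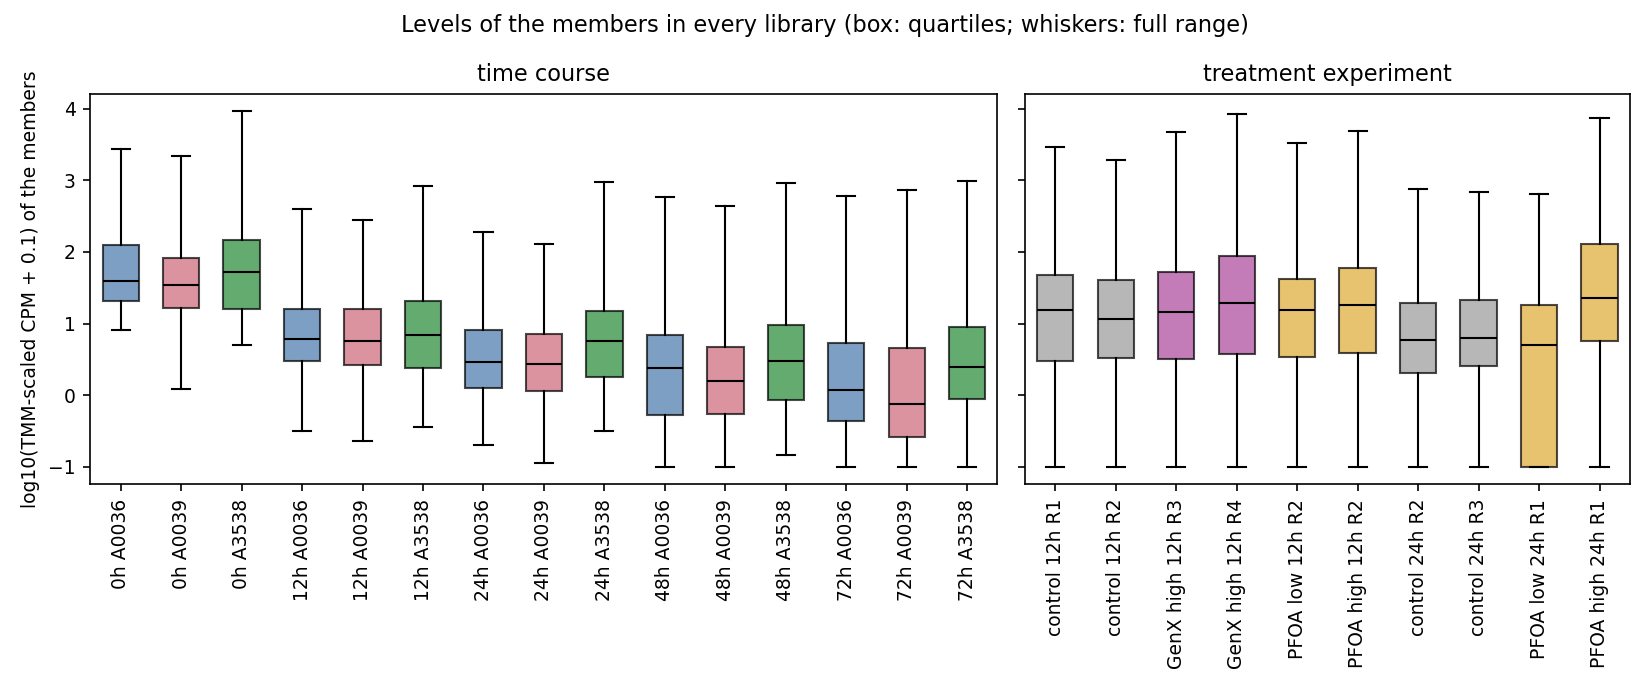
Levels of the 106 early-lost transcripts in each of the 25 libraries, as log10 of TMM-scaled CPM plus 0.1, with boxes for the quartiles, a line for the median and whiskers for the full range. The time-course panel is coloured by identifier and the treatment panel by treatment, and the panels were scaled separately. Medians lay between 34.7 and 52.0 CPM at 0 h and between 0.639 and 2.38 CPM at 72 h, and the PFOA 800 µM library at 24 h had a median of 22.6 CPM against 5.85 and 6.25 CPM in the 24 h controls.

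The 24 and 48 h libraries did not enter the choice of members, so the step between them could be tested. The test is not fully free of that choice, since the same 3 identifiers gave the libraries of the rule. Its spread was also estimated from all 15 libraries, those of the rule included. The log2 fold change was below 0 in 84 of the 106 transcripts and above 0 in 22, with a median of -0.86 against 0 over all 15524 transcripts tested. By the quasi-likelihood test of edgeR (Benjamini-Hochberg adjusted), 1 of the 106 fell (0.0322% of all tested) and 0 rose (0.0193%), where 8 of all transcripts tested (0.0515%) were called. With the identifier as a replicate block 12 of the 106 were called, all lower (1.45% of all tested), and DESeq2 without the block called 18, all lower (2.4%). At an unadjusted p under 0.05 by edgeR 33 were lower (7.18% of all tested) and 0 were higher (8.47% of all tested). The call that was made was ENSMODT00000026346, at 1.16, 0.963 and 1.09 CPM at 24 h, then 0.204, 0.0393 and 0.0947 CPM at 48 h in A0036, A0039 and A3538. Its groups did not overlap, and its log2 fold change was -3.23 (SE 0.507, edgeR adjusted p = 0.0454). The call was lost when the 24 and 48 h libraries were fitted alone (edgeR adjusted p = 0.0849) and without any 1 of the A0036 or A0039 libraries or the A3538 library at 24 h (edgeR adjusted p between 0.0706 and 0.192). ENSMODT00000025144 had the smallest p of those above 0, with 0.988, 1.09 and 2.06 CPM at 24 h and 4.59, 2.03 and 1.87 CPM at 48 h. These groups overlapped, and its log2 fold change of 1.01 (SE 0.491) did not pass (edgeR adjusted p = 0.341). Without the A3538 library at 24 h the median change of the 106 was -0.40 in place of -0.86. With the 24 and 48 h libraries fitted alone, the median over 105 was -0.845 and 0 were called (0 of all 14281 tested).

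The 24 and 48 h libraries also allowed a test of whether the identifiers differed, with time as a covariate and 2 residual degrees of freedom. Of 105 early-lost transcripts tested, 11 differed between identifiers by the quasi-likelihood test of edgeR (Benjamini-Hochberg adjusted), where 204 of 14281 transcripts (1.43%) did so. On simulated counts this test made more false calls than its threshold allows. All 11 were highest in A3538 and lowest in A0039, and over all 106 the highest level at 24 and 48 h was in A3538 for 69, in A0039 for 20 and in A0036 for 17. The same identifiers gave the 0 h libraries of the rule, where 1 high library could bring a transcript in. The 11 calls are therefore not independent of the choice of members, and nothing is read from their share. The 69, 20 and 17 come without a share over all transcripts. ENSMODT00000003940 stood at 56.7, 5.61 and 128 CPM at 24 h, then 26.4, 3.61 and 76.6 CPM at 48 h in A0036, A0039 and A3538 (edgeR adjusted p = 0.0064). Its A3538 libraries were also the highest at 0 h (1371 CPM, against 457 and 255 CPM in A0036 and A0039) and at 72 h (133 CPM, against 27.2 and 2.41 CPM). ENSMODT00000014208 stood at 30.6, 9.59 and 96.0 CPM at 24 h, then 8.02, 3.97 and 38.1 CPM at 48 h in the same order (edgeR adjusted p = 0.00861). For both transcripts the identifiers kept 1 order at both times. The number of calls moved with single libraries, and each such fit left 1 library for an identifier. It fell without either A3538 library and rose without either A0039 library, among the early-lost transcripts and over all tested alike.

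No 0 h library of the treatment experiment was analysed here, so the early loss itself was not measured there. Set beside the time course, which was scaled separately, the 12 h controls were at or above the time-course 0 h mean for 24 of the 106 early-lost transcripts (22.6%, against 72.7% of the 7563) and under the level of a 4-fold loss for 47 (44.3%, against 4.6% of the 7563). The 0 h mean also entered the rule, so these shares are partly set by the choice of members and nothing is read from them. The median level of the 106 was 13.4 CPM in the 12 h controls, and the ratio to the 12 h time-course mean had a median of 2.26, against 1.51 among the 7563. In 54 the control was at least 2 times the 12 h time-course mean (2081 of the 7563). In 28 it was at least 2-fold lower (585 of the 7563). The rule chose the 106 for a low 12 h mean, so these ratios too are partly set by the choice. Blood of another identifier at the same time in culture thus gave levels on both sides of those in the time course. The experiment, the identifier, DMSO and depth differ between these cultures and cannot be told apart.

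Many early-lost transcripts were lower in the 24 h controls than in the 12 h controls. They held 0.941% and 0.713% of counts in the 12 h controls and 0.338% and 0.349% in the 24 h controls. Of the 106, 94 passed the filter on low counts, and by the quasi-likelihood test of edgeR (Benjamini-Hochberg adjusted) 45 of these were lower at 24 h (9.52% of all 11937 tested) and 6 were higher (8.71% of all tested), so that 51 changed where 18.2% of all tested did. The median log2 fold change was -1.21, against 0.01 over all tested. ENSMODT00000042022 and ENSMODT00000025737 had the largest falls. ENSMODT00000042022 stood at 33.0 and 48.9 CPM in the 12 h controls and at 6.06 and 2.21 CPM in the 24 h controls. Its groups lay far apart (log2 fold change -3.27, SE 0.418, edgeR adjusted p = 0.00068), while in the time course the same transcript was at 9.42, 18.8 and 6.50 CPM at 12 h and 25.6, 17.1 and 26.2 CPM at 24 h in A0036, A0039 and A3538. ENSMODT00000025737 stood at 3.14 and 3.22 CPM at 12 h, then 0.418 and 0 CPM at 24 h, both 24 h values being under the floor of 3 counts (log2 fold change -3.85, SE 1.02, edgeR adjusted p = 0.023).

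Of the 6 that rose, 5 had both 24 h controls above both 12 h controls, and the 2 largest rises among these began near the floor. ENSMODT00000037124 stood at 0.242 and 0.594 CPM at 12 h, then 2.93 and 5.33 CPM at 24 h (log2 fold change 3.26, SE 0.783, edgeR adjusted p = 0.015). ENSMODT00000009307 stood at 0.845 and 0.763 CPM at 12 h, then 2.93 and 7.17 CPM at 24 h (log2 fold change 2.70, SE 0.709, edgeR adjusted p = 0.0225). The sixth, ENSMODT00000013318, is named after its values were seen. It stood at 5.68 and 5.43 CPM at 12 h, then 3.34 and 94.5 CPM at 24 h, so its groups overlapped and its log2 fold change of 3.21 (SE 0.915, edgeR adjusted p = 0.0312) came with 1 high library. ENSMODT00000037124 and ENSMODT00000009307 were highest in A3538 at 0, 12, 24 and 48 h. The call was lost for ENSMODT00000037124 without R1 at 12 h or R3 at 24 h (edgeR adjusted p = 0.116 and 0.162), and for ENSMODT00000009307 without any 1 library but R2 at 24 h (edgeR adjusted p between 0.0724 and 0.308). For ENSMODT00000025737 the same 3 omissions gave an edgeR adjusted p between 0.106 and 0.125. With the time term of all 10 libraries in place of the 4 controls, 12 of 96 early-lost transcripts fell and 5 rose. Over all 12565 tested, 641 fell and 616 rose, so the 5 rises lie close to the share of all tested.

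Among the early-lost transcripts, the fall in the controls went with the identifier that had led at 0 h in the time course. This grouping was made after the values were seen. Of the 47 early-lost transcripts that were highest in A0039 at 0 h, 45 were tested in the controls, and of these 31 fell and 0 rose. Of the 46 that were highest in A3538, 37 were tested, and of these 6 fell and 5 rose. The median log2 fold change was -1.47 in the first group and 0.10 in the second. The first group was also at a median of 19.4 CPM in the 12 h controls, with 19 of 47 at or above the time-course 0 h mean, and the second at 2.76 CPM, with 0 of 46 at or above it and 39 of 46 at or below the level of a 4-fold loss. The difference between these groups was not tested, and the 0 h levels behind the grouping and these counts also entered the rule. The counts come without a share over all tested transcripts led by the same identifier. Whether the difference is particular to the early-lost transcripts was therefore not tested. By their medians, transcripts of the second group lay nearer to the floor. Of the 13 that were highest in A0036, 12 were tested, and 8 fell and 1 rose, with a median log2 fold change of -1.66.

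**Figure D4:**
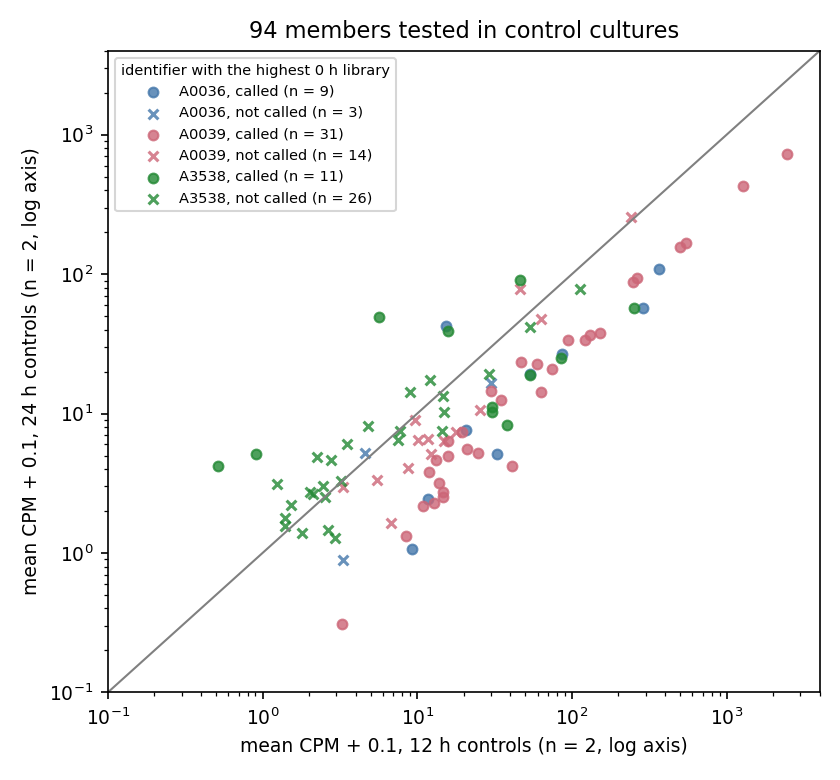
Mean TMM-scaled CPM plus 0.1 of the 94 tested early-lost transcripts in the 24 h controls against the 12 h controls (2 libraries each, log axes), coloured by the identifier with the highest 0 h library in the time course, with discs for transcripts called by edgeR at an adjusted p under 0.05 and crosses for the others. The grey line marks equal levels. Most transcripts that led in A0039 lie below the line (31 of 45 called lower), and those that led in A3538 lie on both sides of it. Shares over all transcripts led by an identifier are not given.

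The 24 transcripts whose 12 h controls reached the time-course 0 h mean were all lower at 24 h in the controls. They were picked on those same 12 h control levels, so this count is a description. ENSMODT00000006917, chosen after its values were seen, shows the contrast between the experiments. In the time course it stood at 1382, 2189 and 724 CPM at 0 h in A0036, A0039 and A3538, then 134, 279 and 144 CPM at 12 h. Its 72 h libraries were at 3.53, 3.22 and 15.5 CPM. In the controls it stood at 2932 and 1950 CPM at 12 h, then 771 and 684 CPM at 24 h. The lowest control library was thus above every time-course library from 12 h on.

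PFOA was set against the controls in a joint fit of all 10 libraries that included time. No early-lost transcript passed the test by edgeR, although most had higher fitted levels with PFOA. Of 96 tested, the log2 fold change was above 0 in 72, with a median of 1.01 against -0.04 over all 12565 tested. By the quasi-likelihood test of edgeR (Benjamini-Hochberg adjusted) 0 of the 96 were called (0.0796% of all tested were, and 0.0557% as higher), while DESeq2 called 12, all higher (4.37% of all tested). At an unadjusted p under 0.05 by edgeR, 38 were higher (9.56% of all tested) and 3 were lower (6.14% of all tested). PFOA 800 µM at 24 h was the library with the fewest counts. Without it the median log2 fold change was 0.35. Of 95 tested, 21 then had an unadjusted p under 0.05 by edgeR in either direction (2017 of 12322 over all tested). With it, 41 of the 96 had one (1972 of 12565 over all tested). With the replicate number as a block 21 of the 96 had one (1150 of 12565 over all tested). Early-lost transcripts held 2.34% of counts in that library, 0.326% with PFOA 400 µM at 24 h, and 1.08% and 1.51% with 400 and 800 µM at 12 h.

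The smallest p of those above 0 was that of ENSMODT00000007478. It stood at 33.1 and 25.4 CPM in the 12 h controls, at 34.7 CPM with 400 µM and 60.3 CPM with 800 µM PFOA at 12 h, at 20.3 and 17.8 CPM in the 24 h controls, and at 52.6 CPM with 400 µM and 136 CPM with 800 µM PFOA at 24 h. Every PFOA library was above every control (log2 fold change 1.54, SE 0.376), yet the difference did not pass (edgeR adjusted p = 0.14; DESeq2 adjusted p = 0.00992). Of those below 0 the smallest p was that of ENSMODT00000003331, at 80.8 and 67.5 CPM in the 12 h controls, 18.0 and 23.9 CPM in the 24 h controls, 40.8 and 40.5 CPM with PFOA at 12 h and 14.7 and 11.3 CPM with PFOA at 24 h (400 and 800 µM in that order). Its PFOA libraries lay below the controls of the same time (log2 fold change -0.68, SE 0.247, edgeR adjusted p = 0.221).

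Ranks at a single time show where the PFOA libraries stood. At 12 h, both PFOA libraries were above both controls for 43 of the 96 (18.3% of all tested) and below both for 16 (28.8%). At 24 h, PFOA 800 µM was above both controls for 69 of the 96 (32.8%) and below both for 17 (59.6%). PFOA 400 µM at 24 h was above both for 33 (34.1%) and below both for 48 (48.9%), which is close to the shares of all transcripts tested.

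GenX at 1200 µM was compared with the controls in the same model. The controls are the same as those for PFOA, so the 2 comparisons are not independent. The log2 fold change was above 0 in 71 of the 96, with a median of 0.865 against -0.03 over all tested. By the quasi-likelihood test of edgeR (Benjamini-Hochberg adjusted) 0 were called (0.00796% of all tested were), and DESeq2 called 0. At an unadjusted p under 0.05 by edgeR, 36 were higher (6% of all tested) and 1 was lower (0.82% of all tested). In either direction 37 had one (857 of all tested). Without the R4 library, which left 1 GenX library, the median was 0.595. With the replicate number as a block 1 had an unadjusted p under 0.05 by edgeR (94 of all tested), and the median was 0.511. R4 occurs in 1 GenX library alone, so with the block the difference rests on R3. Both GenX libraries were above both 12 h controls for 47 of the 96 (14.9% of all tested) and below both for 19 (23.6%). Early-lost transcripts held 1.4% and 2.42% of counts in R3 and R4.

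The smallest p with GenX was that of ENSMODT00000001588, at 69.0 and 48.9 CPM in the 12 h controls, 24.2 and 21.1 CPM in the 24 h controls, and 104 and 228 CPM with GenX. The GenX libraries were above all 4 controls but differed from each other by more than the 12 h controls did (log2 fold change 1.92, SE 0.531, edgeR adjusted p = 0.499). ENSMODT00000038233 had the smallest p of those below 0, at 278 and 228 CPM in the 12 h controls and 128 and 121 CPM with GenX. At 12 h these groups did not overlap, but its 24 h controls were lower still, at 68.4 and 46.7 CPM (log2 fold change -0.85, SE 0.284, edgeR adjusted p = 0.554).

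The differences from the controls were also divided by the leading identifier at 0 h. For transcripts that led in A0039, the median log2 fold change was 1.01 with PFOA and 1.38 with GenX, above 0 in 37 and 38 of 45 tested. For those that led in A3538, it was 0.33 with PFOA and 0.24 with GenX, above 0 in 25 and 23 of 38 tested. The few that led in A0036 had the highest medians, 1.34 with PFOA and 1.55 with GenX, above 0 in 10 of 13 tested with each compound. These groups were formed after the values were seen, and the difference between them was not tested. They come without values over all tested transcripts led by the same identifier.

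**Figure D5:**
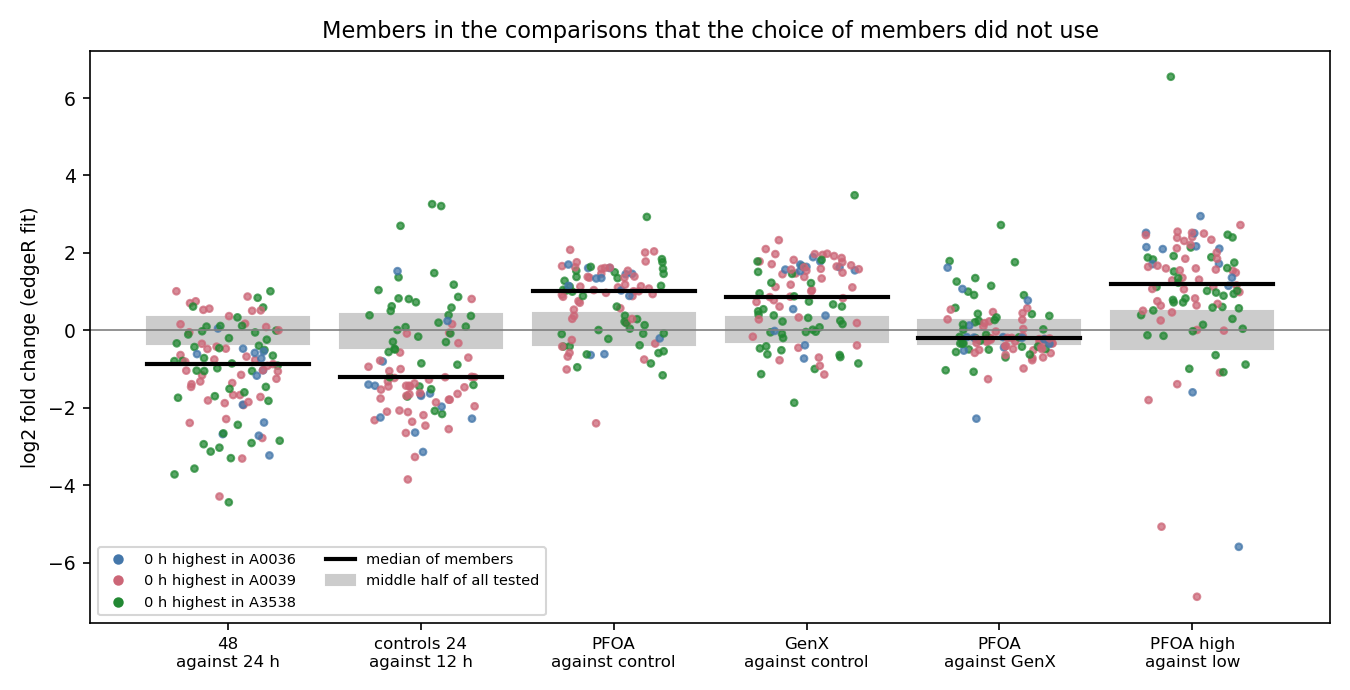
Log2 fold changes from edgeR for the early-lost transcripts tested in each of 6 comparisons, with 1 point per transcript. Colours give the identifier with the highest 0 h library. The libraries compared did not enter the choice of members, but those of 48 against 24 h share the identifiers of the rule. Black bars are medians of the early-lost transcripts, and grey boxes span the quartiles of all transcripts tested. The medians lie at -0.86 for 48 against 24 h, -1.21 for 24 against 12 h in controls, 1.01 for PFOA, 0.865 for GenX, -0.21 for PFOA against GenX and 1.20 for 800 against 400 µM PFOA.

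PFOA and GenX were not given at matched doses, and only PFOA was sampled at 24 h, so the direct difference compares these cultures and not equal exposures. The compounds share no replicate number: R1 and R2 occur with PFOA and R3 and R4 with GenX. Only the controls, with R1, R2 and R3, link the numbers. R4 occurs in 1 GenX library alone, so with the number as a block GenX rests on R3. Of the 96 early-lost transcripts, 0 differed between the compounds by the quasi-likelihood test of edgeR with adjusted p (0.0239% of all tested did), DESeq2 called 0, and 2 had an unadjusted p under 0.05 by edgeR, both higher with PFOA (1.31% of all tested). The median log2 difference was -0.21, and it was above 0 with the replicate number as a block (0.03), without GenX R4 (0.24) or without PFOA 400 µM at 12 h (0.105). Like responses are not shown by this, since the 95% interval lay within 2-fold in either direction for 5.21% of the transcripts and within 4-fold for 56.2%.

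The smallest p was that of ENSMODT00000015457, at 9.29 and 6.80 CPM with GenX at 12 h and at 17.0 and 28.5 CPM with 400 and 800 µM PFOA at 12 h. At 24 h it was at 46.5 and 181 CPM with 400 and 800 µM PFOA, but also at 31.8 and 46.1 CPM in the controls, against 19.9 and 11.6 CPM in the 12 h controls. All PFOA libraries were above both GenX libraries (log2 difference 1.76, 95% interval 0.54 to 2.98, edgeR adjusted p = 0.999). ENSMODT00000002946 had the smallest p of those below 0, at 2.93 and 3.96 CPM with GenX and at 0.984, 0, 1.22 and 0 CPM with PFOA (400 and 800 µM at 12 h, then 400 and 800 µM at 24 h). The PFOA values lay near or under the floor of 3 counts, and the 95% interval of the log2 difference of -2.28 ran from -5.34 to 0.78 (edgeR adjusted p = 0.999).

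Within PFOA, the 800 µM libraries were compared with the 400 µM libraries by a dose term. The log2 difference was above 0 in 81 of the 96, with a median of 1.20 against -0.06 over all tested. By the quasi-likelihood test of edgeR (Benjamini-Hochberg adjusted) 0 were called (0.0159% of all tested were), while DESeq2 called 15, all higher (0.716% of all tested). At an unadjusted p under 0.05 by edgeR, 40 were higher with 800 µM (4.7% of all tested) and 2 were lower (2.42% of all tested). Without the 800 µM library at 24 h the median log2 difference was 0.651 (-0.007 over all tested). Leaving out the 400 µM library at 24 h gave 1.01 (-0.08 over all tested), and the 12 h libraries alone gave 0.461 (-0.003 over all tested). Each of these fits left 1 library at a dose. Without the 800 µM library at 12 h, edgeR called 40 with Benjamini-Hochberg adjustment, all higher (4.78% of all tested), and the 800 µM arm was then the single library of 366269 counts, assumed to vary like the other groups.

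ENSMODT00000007364 had the smallest p of those above 0, at 59.5 CPM with 400 µM and 98.8 CPM with 800 µM at 12 h, and at 155 CPM with 400 µM and 849 CPM with 800 µM at 24 h. At each time the higher dose had the higher level, and the controls were at 51.8 and 40.2 CPM at 12 h, then 75 and 106 CPM at 24 h (log2 difference 1.88, SE 0.452, edgeR adjusted p = 0.382). GenX gave 35.0 and 29.7 CPM for the same transcript. ENSMODT00000042448 had the smallest p of those below 0, at 4.67 CPM with 400 µM at 12 h and at 0 CPM in the other PFOA libraries, against 3.86 and 2.54 CPM in the 12 h controls and 1.88 and 3.86 CPM in the 24 h controls. Taking each count as single, a count of 0 allowed up to 1.24 CPM with 800 µM at 12 h, 3.67 CPM with 400 µM at 24 h and 8.49 CPM with 800 µM at 24 h. A difference at 24 h was therefore not detectable at this depth (edgeR adjusted p = 0.664).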

How the data were processed

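Poly(A) RNA of cultured opossum blood was sequenced in 25 libraries. The authors deposited raw counts per transcript in 1 table per experiment. Per the submitters' processing notes the software included R 4.1.2 with edgeR, bedtools 2.30.0, Bowtie2, TopHat2 2.1.1, Trimmomatic 0.36 and FastQC 11.5. Genome build, annotation and strand setting: not given in the sources used here. Values of overlapping, antisense and near-identical transcripts are therefore uncertain. From 22063 features per table, 4 upper-case copies were removed. Even numbers made up 71% (time course) and 70.9% (treatment experiment) of the counts from 1 to 12, which means that counts did not come singly.

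The members and lists were chosen with earlier results of these data known. Tests were edgeR 4.0.16 quasi-likelihood tests in R 4.3.3 (TMM after filterByExpr with a minimum count of 10, Benjamini-Hochberg adjustment over all transcripts tested, threshold 0.05). The time contrast used all 15 time-course libraries, the identifier test the 6 at 24 and 48 h, the control contrast the 4 controls, and the compound and dose contrasts all 10 libraries with time. Alternatives were RLE scaling, no filter, DESeq2 1.42.0, other sample sets, a replicate block and leaving out each library. Named transcripts were, for 12 against 0 h, the 2 with the largest loss, for 72 against 0 h the 2 with the highest 0 h mean, and for each test the 2 largest changes in each direction among called transcripts whose groups did not overlap, or otherwise the smallest p in that direction (for identifiers, the 2 smallest p).

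Each test was tried on simulated counts with known changes, where the identifier test made the most false calls, more than its threshold allows.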

Additional observations from a re-analysis of the deposited data

Results flagged for a closer look

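Of 40 groups of 4 to 10 libraries examined, 3 held 1 library far from the others. Each of the 4 PFOA libraries had its own pairing of dose and time, and some transcripts were named from tests on these libraries. No rate of such groups by chance is therefore given. In the 4 PFOA libraries, ENSMODT00000007364 stood at 849 CPM with 800 µM at 24 h and between 59.5 and 155 CPM in the others. ENSMODT00000025737 stood at 0.984 CPM with 400 µM at 12 h and at 0 in the others, and ENSMODT00000042448 stood at 4.67 CPM with 400 µM at 12 h and at 0 in the others. A count of 0 allowed up to 1.24 CPM with 800 µM at 12 h, 3.67 CPM with 400 µM at 24 h and 8.49 CPM with 800 µM at 24 h. The 0.984 CPM of ENSMODT00000025737 is under all 3 limits, so no difference between these libraries was detectable at this depth. The 4.67 CPM of ENSMODT00000042448 is above the first 2 limits and under that of 800 µM at 24 h. These limits treat each count as single. Low counts were mostly even, so the limits may lie higher, and 4.67 CPM may not clear that of 400 µM at 24 h.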

How the results depend on the processing

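The rule found 106 transcripts, and 67 with scaling to library totals alone, 183 with 3-fold losses, 26 with 8-fold losses and 52 with both losses within every identifier. RLE scaling gave 113, a 0 h minimum of 5 CPM gave 140 and medians gave 133. Leaving out 1 library gave 95 to 158. The most came without A3538 at 12 h (96 of the 106 among them). For 48 against 24 h, 1 early-lost transcript was called, against 2 with no filter on low counts, 18 with DESeq2, 0 with the 24 and 48 h libraries alone and 0 to 3 when 1 library was left out (3 without A3538 at 48 h). Over all tested, 8 of 15524 were called, against 40 of 20079 with no filter and 877 of 15524 with DESeq2. Without A3538 at 48 h, 316 of 16000 were. Between identifiers 11 were called, against 28 with no filter, 24 with all 15 libraries and 6 to 29 when 1 library was left out. In the controls 51 were called (2176 of 11937 over all tested), against 17 with the time term of the 10-library model (1257 of 12565). With no filter the calls were 30 for PFOA against control, 28 for GenX against control, 1 for PFOA against GenX and 24 for PFOA 800 against 400 µM, in place of 0. Over all 18345 tested with no filter, the calls were 640, 196, 15 and 159 in that order. DESeq2 called 12 for PFOA and 15 for dose, also in place of 0 (734 and 92 of 12565 over all tested). Leaving out 1 library gave 0 to 1 calls for PFOA (1, lower, without 800 µM at 24 h), 0 to 1 for GenX (1, higher, without R3), 0 for PFOA against GenX and 0 to 40 for dose (40 without 800 µM at 12 h). The causes of these differences were not tested.

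A replicate block was fitted wherever groups shared numbers. In the time course, deviations of same-identifier libraries correlated by between -0.135 and 0.668 (median 0.248 over 30 pairs, 23 of them over 0.1), and those of different identifiers by between -0.635 and 0.287 (median -0.113 over 60 pairs). Of the 15 libraries, 14 correlated best with their own identifier, a hint from the data that libraries of 1 identifier are alike. The labels do not say that an identifier is 1 animal and not every pair was over 0.1, so the fit without the block was kept as the main one. With the replicate block 12 early-lost transcripts (459 of all tested, against 8 without it) were called for 48 against 24 h, all lower, and 0 for PFOA, for GenX, for PFOA against GenX and for dose. With the block on the number, the log2 difference of ENSMODT00000002946 between PFOA and GenX turned from -2.28 to 1.05. The early-lost transcripts with GenX at an unadjusted p under 0.05 by edgeR went from 37 to 1 (all tested, from 857 to 94). R4 occurs in 1 GenX library alone, so that block in effect removes it and GenX rests on R3. The 12 and 24 h controls share a single number, so no paired analysis was possible because fewer than 2 numbers were shared.

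Of the alternatives for the log2 fold changes of named transcripts, 118 kept their direction and side of the threshold, 16 lost the call, 6 gained one and 1 reversed. Many of the named transcripts were not called in the main fit, and for them staying uncalled counted as kept. Only the called ones could lose a call, so the 118 does not show that calls were stable. Depth limits the 24 h PFOA libraries most: 3 counts there were 3.67 and 8.49 CPM, above the 24 h control level of many early-lost transcripts.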
